A study of Mus musculus with 6 samples.

Results

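Solute carriers are the membrane proteins, named SLC followed by a family number, that move amino acids, sugars, nucleosides, metals and ions across membranes. The mouse genes described here are the protein-coding genes with an Slc symbol that had a summed count of at least 60 over the 6 libraries, without the mitochondrial SLC25 family and without Slc6a4, Slc18a1, Slc18a2, Slc7a2, Slc7a11, Slc40a1 and Slc11a1. This gave 173 of the 28822 gene identifiers in the table, out of 264 Slc genes that met the rule apart from the summed count. The count chose them over all libraries together, and not by treatment. Grouped by main substrate, they fell into 22 classes, of which the largest were amino acids (25 genes), nucleotide sugars and other Golgi or endoplasmic reticulum cargo (22 genes) and zinc (20 genes).

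The 6 libraries were bulk RNA sequencing of mouse cells in 2 groups of 3, labelled BW723C86 and DMSO. BW723C86 activates 5-HT2B, a receptor for serotonin, and DMSO is its vehicle. In both groups the cells shared a Transwell with HT22 cells, a neuronal line from mouse hippocampus, which had spent 2 h without oxygen and glucose, a culture model of ischaemia. The sample labels name BMDM, macrophages grown from bone marrow, together with HT22, while the series' own text names BV2 microglia or BMDMs as the upper-chamber cells from which RNA was taken. Dose, length of treatment, mouse strain, sex and age, and whether replicates were separate cultures, are not given in the sources used. The p-values therefore reflect the spread among these 6 libraries alone, and part of it may be technical.

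As background, plasma membrane carriers set what a macrophage takes in and releases, while lysosomal carriers return amino acids, nucleosides, sialic acid, haem and metals from digested cargo to the cytosol. Many carriers work as obligate exchangers or are driven by gradients of sodium or protons, so that the direction of transport depends on both sides of the membrane. Transcript levels, which are what was measured here, do not give transport rates.

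Total counts ran from 58841307 to 75931615 per library, and 19034 to 20002 genes were detected in each. BW723C86 replicate 2 stood apart from the other 2 BW723C86 libraries, with chi-square values, per degree of freedom, of 35.5 and 24.4 against them, while the other within-group pairs gave 9.83 to 11.1. Summed levels of 10 macrophage markers were 33274 to 34420 CPM (counts relative to the library's total, after TMM scaling for composition) with BW723C86 and 37793 to 38661 CPM with DMSO. Of these 10 markers, 4 rose, 4 fell and 2 did not pass, with a median log2 fold change (BW723C86 over DMSO) of 0.06. Markers listed for several other blood cell types moved with treatment. Of 11 tested neutrophil markers 11 fell (summed level 715 to 821 CPM with BW723C86, against 2656 to 2732 CPM with DMSO), as did 9 of 10 monocyte markers (1486 to 1610 CPM, against 6032 to 6112 CPM), and 5 of 8 tested dendritic cell markers rose (2361 to 2519 CPM, against 517 to 529 CPM). Of 7 tested mast cell and basophil markers 5 fell (61.7 to 65.5 CPM, against 122 to 130 CPM), as did 4 of 4 tested lymphocyte markers (1.68 to 2.01 CPM, against 5.93 to 8.04 CPM). Of 5 tested erythroid markers 1 fell and 4 did not pass (2.11 to 2.54 CPM, against 2.32 to 2.59 CPM). Neuronal markers summed to at most 0.924 CPM in any library, with 3 of 8 at 0 in all, including Map2 and Nefl. In bulk RNA, a change in the number of cells of a type and a change in RNA per cell cannot be told apart, and the part of these shifts in the carrier results below was not tested.

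With BW723C86, more carrier genes were higher than lower. Of 172 tested members, 79 rose and 25 fell at an adjusted p below 0.05 (edgeR's quasi-likelihood F test, two-sided, Benjamini-Hochberg over all 15567 tested genes), and 68 did not pass. These counts are 45.9% and 14.5% of the tested members, where all tested genes gave 21.3% higher and 20.7% lower, or 42% in either direction. Groups did not overlap for 114 members, 83 of them higher and 31 lower with BW723C86, while the share over all tested genes was 52.3% (26.3% above and 26% below). The median log2 fold change, BW723C86 over DMSO, was 0.17 over the members and 0.00 over all genes, and the median absolute change was 0.31 and 0.27. Group values of single genes are given as mean ± SD over n = 3 libraries per group.

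Calls depend on abundance, and 23 of the 172 tested members lay below 2 CPM on average, as did 4121 of all 15567 tested genes. Among genes with at least 5 CPM in 3 libraries, 71 of 138 members rose and 23 fell, where 28.5% of all such genes rose and 27% fell. The 39 SLC25 genes past the same summed count gave 14 higher and 7 lower, with a median log2 fold change of 0.18. When libraries were scaled by their totals alone, 64 members rose and 31 fell, and over all genes 2581 rose and 4124 fell in place of 3319 and 3215. That scaling shifted the median log2 fold change of all genes by -0.07, to -0.07, and left the members' median at 0.10.

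**Figure D1:**
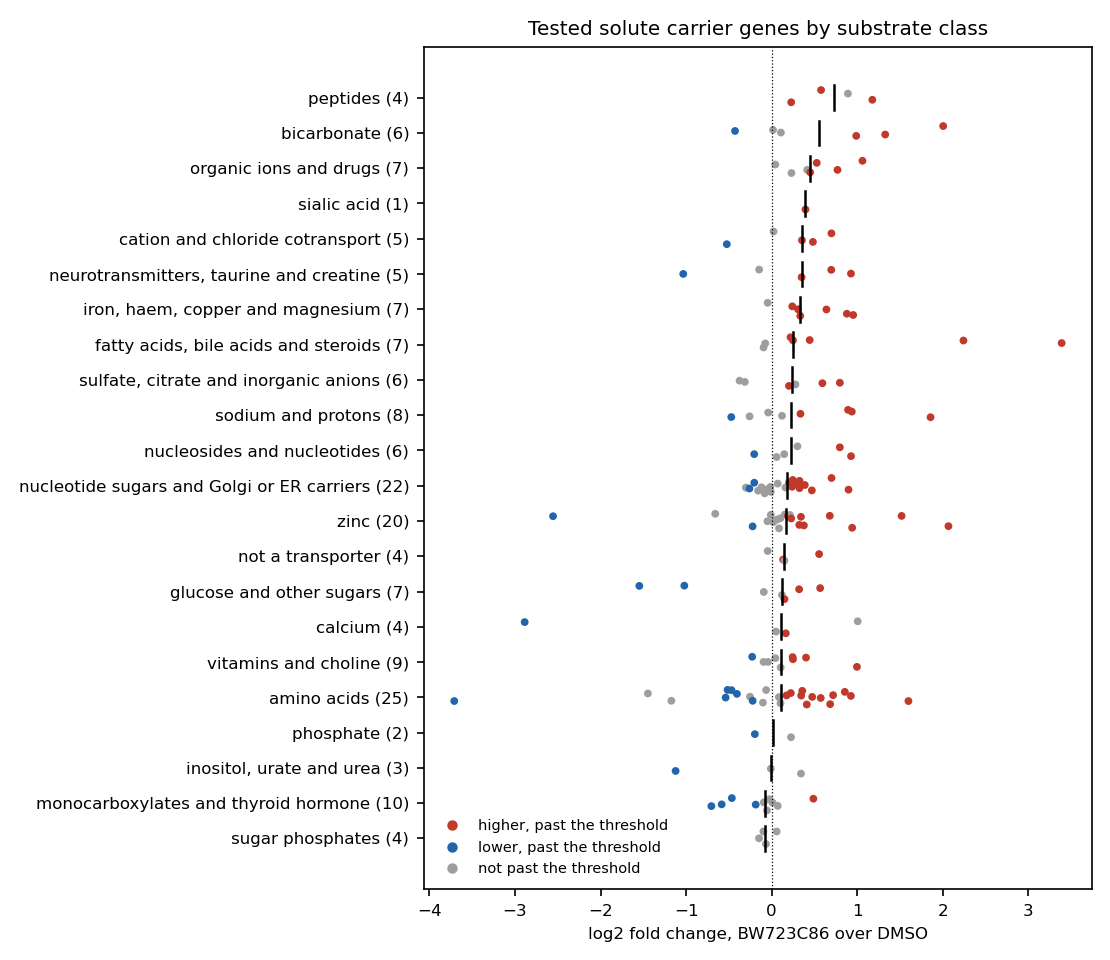
Each point is a tested carrier gene, placed by its log2 fold change (BW723C86 over DMSO, x axis) and its substrate class (y axis, number tested in parentheses); red points rose, blue points fell, grey points did not pass an adjusted p of 0.05, and black bars are class medians. Most class medians lie above 0, up to 0.73 for the 4 peptide carriers, while those of monocarboxylates (-0.07), sugar phosphates (-0.08) and inositol, urate and urea carriers (-0.0091) lie just below.

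In the plot of carriers by substrate class, the 6 classes with several risers and no member that fell were fatty acid and bile acid carriers (5 of 7 rose), carriers of iron, haem, copper and magnesium (6 of 7), organic ion carriers (4 of 7), peptide carriers (3 of 4), sulfate and other anion carriers (3 of 6) and the 4 genes whose products are not transporters (2 of 4). Monocarboxylate carriers went the other way, with 1 of 10 higher and 4 lower. The 4 sugar phosphate carriers gave no call in either direction. For comparison with these class counts and those below, 45.9% of all tested members rose and 14.5% fell. Over all tested genes the shares were 21.3% and 20.7%.

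Changes of at least 2-fold were few: 10 members were higher (5.81% of those tested, where all tested genes gave 4.41%) and 7 were lower (4.07%, where all genes gave 4.05%). They belonged to fatty acid, zinc, bicarbonate, sodium and proton, amino acid, peptide and organic ion carriers among those that rose, and to glutamate, calcium, zinc, sugar, urate and GABA carriers among those that fell. Slc27a3 (ENSMUSG00000027932), which encodes an acyl-CoA synthetase of the fatty acid transport protein family, measured 3.91, 3.82 and 4.83 CPM with BW723C86, against 0.373, 0.381 and 0.437 CPM with DMSO. All 3 BW723C86 libraries were about equally high and far above all 3 DMSO libraries (log2 fold change 3.39 ± 0.22 SE, edgeR adjusted p = 5.11e-08). Its relative Slc27a6 (ENSMUSG00000024600), the fatty acid transport protein best known from heart muscle, measured 15.8, 16.9 and 15.6 CPM with BW723C86, against 3.15, 3.41 and 3.62 CPM with DMSO. The groups were again well separated (log2 fold change 2.24 ± 0.10 SE, edgeR adjusted p = 1.81e-09).

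**Figure D2:**
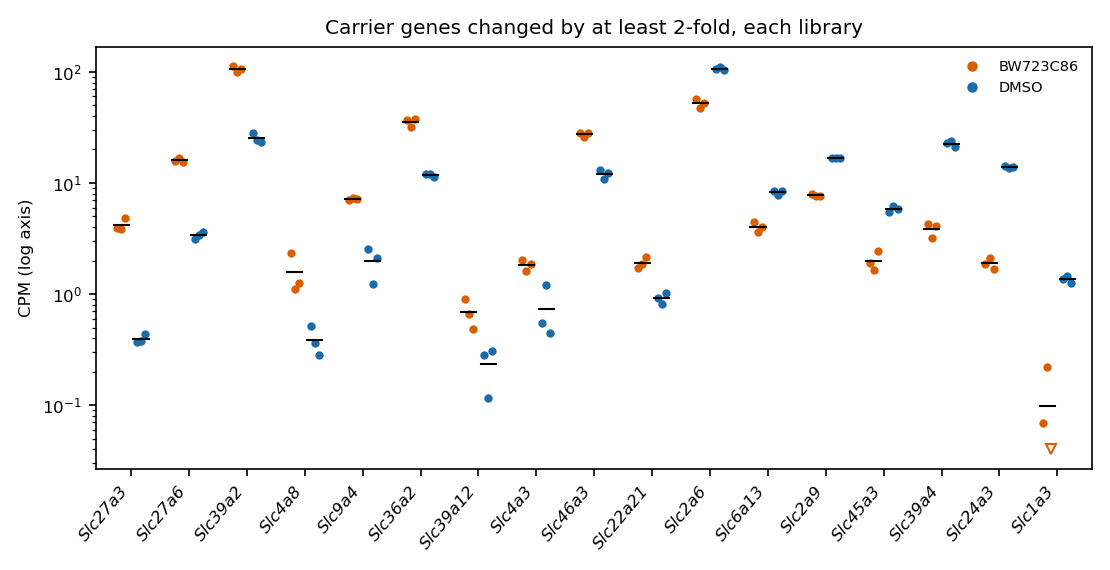
CPM of each library (log axis) for the 17 carrier genes that changed by at least 2-fold, with BW723C86 in orange left of DMSO in blue and black bars for group means; the open triangle is Slc1a3 in BW723C86 replicate 3, which had a count of 0 and is drawn at 0.04 CPM for display. The first 10 genes are higher with BW723C86 and the last 7 lower, from Slc27a3 (4.19 against 0.397 CPM) to Slc1a3 (0.0974 against 1.36 CPM).

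Of the 17, 5 lay below 2 CPM on average over all libraries, and their values are the least certain. Slc1a3, a glial glutamate carrier known as GLAST, had counts of 4, 16 and 0 with BW723C86, against 106, 88 and 98 with DMSO. Every BW723C86 library was far below every DMSO library, but the size of the change rests on BW723C86 replicate 2: the log2 fold change was -3.71 ± 0.65 SE with all libraries (edgeR adjusted p = 0.000535), -5.25 without that library and -4.59 by limma-voom. The bicarbonate exchangers Slc4a8 and Slc4a3 were higher at low levels. Slc4a8 measured 2.32, 1.11 and 1.27 CPM with BW723C86, against 0.515, 0.365 and 0.283 CPM with DMSO (log2 fold change 2.01 ± 0.37 SE, edgeR adjusted p = 0.000774). For Slc4a3 the values were 2.02, 1.63 and 1.86 CPM with BW723C86, against 0.553, 1.21 and 0.45 CPM with DMSO (log2 fold change 1.33 ± 0.35 SE, edgeR adjusted p = 0.00768). Slc22a21, a mouse carnitine carrier, measured 1.73, 1.88 and 2.16 CPM with BW723C86, against 0.926, 0.812 and 1.01 CPM with DMSO, also without overlap (log2 fold change 1.06 ± 0.23 SE, edgeR adjusted p = 0.00261). Slc39a12, a zinc importer known from brain, measured 0.907, 0.667 and 0.49 CPM with BW723C86, against 0.283, 0.116 and 0.308 CPM with DMSO, and its call (adjusted p = 0.0234) was lost without BW723C86 replicate 1 (0.107), BW723C86 replicate 2 (0.0533) or DMSO replicate 2 (0.0744).

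Amino acid carriers moved in both directions: 12 of 25 rose, 6 fell and 7 did not pass, where 45.9% of all tested members rose and 14.5% fell. Their median log2 fold change was 0.10, and their summed group means were 2012 CPM with BW723C86 and 1898 CPM with DMSO. Those that rose included the SLC36 carriers and several carriers of the lysosome. Those that fell included LAT1 and SNAT2, a pair of plasma membrane carriers known to respond to amino acid supply.

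**Figure D3:**
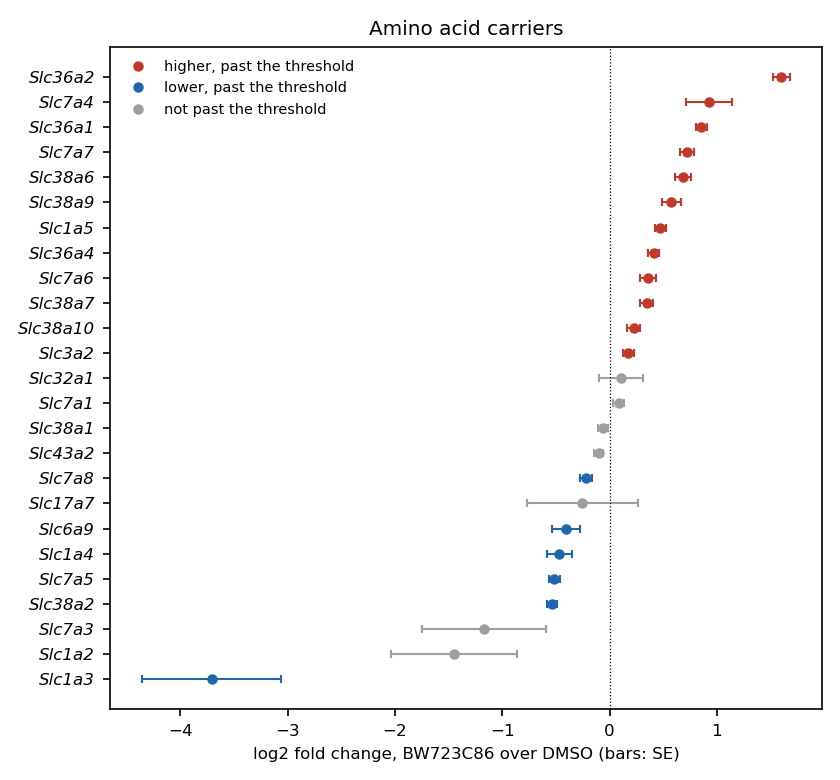
Log2 fold change (BW723C86 over DMSO, x axis) of the 25 tested amino acid carriers with bars for 1 SE; red genes rose, blue genes fell and grey genes did not pass an adjusted p of 0.05. Slc36a2 stands highest at 1.60 and Slc1a3 lowest at -3.71, and the widest bars belong to genes with few counts.

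The 3 SLC36 members all rose. Slc36a2 (ENSMUSG00000020264), a carrier of glycine and proline, measured 36.9, 32.1 and 37.9 CPM with BW723C86, against 11.9, 12 and 11.4 CPM with DMSO. The BW723C86 libraries held about 3 times the DMSO level, with a narrow spread in both groups (log2 fold change 1.60 ± 0.08 SE, edgeR adjusted p = 3.83e-09). Slc36a1 (ENSMUSG00000020261), which exports small neutral amino acids from lysosomes, measured 166, 156 and 170.2 CPM with BW723C86, against 89.5, 91.9 and 90.6 CPM with DMSO (log2 fold change 0.86 ± 0.05 SE, edgeR adjusted p = 1.29e-08). Slc36a4, a high-affinity carrier of proline and tryptophan, also rose (log2 fold change 0.41 ± 0.05 SE, edgeR adjusted p = 2.68e-05). In the SLC38 family, the lysosomal arginine sensor gene Slc38a9 rose (32.5 ± 3.74 CPM with BW723C86 and 21.8 ± 1.73 CPM with DMSO, mean ± SD, log2 fold change 0.57 ± 0.09 SE, edgeR adjusted p = 0.000183), as did the lysosomal glutamine exporter gene Slc38a7 (0.35), Slc38a6 (0.68) and Slc38a10 (0.22).

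SNAT2, encoded by Slc38a2, takes up neutral amino acids with sodium and is induced when amino acids are scarce. Its gene (ENSMUSG00000022462) measured 158, 175 and 166 CPM with BW723C86, against 244, 236 and 244 CPM with DMSO. Every BW723C86 library was below every DMSO library (log2 fold change -0.54 ± 0.05 SE, edgeR adjusted p = 1.3e-06). Slc38a1, which encodes its close relative SNAT1, gave overlapping groups (134, 143 and 134 CPM with BW723C86, against 141, 142 and 146 CPM with DMSO) and missed the threshold (log2 fold change -0.06 ± 0.05 SE, edgeR adjusted p = 0.29). Under scaling by library totals and without BW723C86 replicate 2 it passed as lower, with log2 fold changes of -0.14 and -0.11.

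The heterodimeric exchangers pair the CD98 heavy chain, Slc3a2, with a light chain that sets the substrate. Slc7a5 (ENSMUSG00000040010), the light chain LAT1 for large neutral amino acids such as leucine, measured 188, 169 and 176 CPM with BW723C86, against 250.3, 258 and 253 CPM with DMSO. All BW723C86 libraries were lower (log2 fold change -0.51 ± 0.05 SE, edgeR adjusted p = 2.14e-06). Slc7a7, the light chain y+LAT1, which exports cationic amino acids such as arginine in exchange for neutral ones, was higher without overlap: 47.4, 43.8 and 48 CPM with BW723C86, against 26.4, 28.3 and 29.9 CPM with DMSO (log2 fold change 0.72 ± 0.07 SE, edgeR adjusted p = 1.63e-06). Slc7a6, which encodes the related y+LAT2, rose too (log2 fold change 0.36 ± 0.07 SE, edgeR adjusted p = 0.00166). Slc7a8, which encodes LAT2, fell slightly (51.4 ± 2.13 CPM with BW723C86 and 59.9 ± 2.02 CPM with DMSO, mean ± SD, log2 fold change -0.22 ± 0.05 SE, edgeR adjusted p = 0.00545). The heavy chain Slc3a2 rose by little, with 368, 326 and 361 CPM with BW723C86, against 309.8, 313 and 312 CPM with DMSO (log2 fold change 0.17 ± 0.05 SE, edgeR adjusted p = 0.0136), and its call was lost without BW723C86 replicate 3, without any 1 of the DMSO libraries (adjusted p = 0.0572 to 0.077) and with library totals alone (0.101).

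To compare levels between these light chains, CPM was divided by the gene's exon length in kilobases. Of the summed CPM per kilobase of Slc7a5, Slc7a6, Slc7a7 and Slc7a8, Slc7a5 made up 61.4 ± 1.13% with BW723C86 and 73.2 ± 0.467% with DMSO (SD, n = 3 each). Slc7a7 made up 17.9 ± 0.418% with BW723C86 and 9.1 ± 0.473% with DMSO, and Slc7a6 7.5 ± 0.394% with BW723C86 and 4.88 ± 0.363% with DMSO. The share of Slc7a8 was 13.2 ± 0.492% with BW723C86 and 12.8 ± 0.535% with DMSO, a difference within the spread. Slc7a5 thus stayed the most abundant of the 4 in both groups while Slc7a7 took a larger share. Slc7a11, a further light chain, is outside the set described here and was not counted in these shares.

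In the SLC1 family, Slc1a5 (ENSMUSG00000001918), the glutamine and neutral amino acid exchanger ASCT2, rose: 116, 101 and 111 CPM with BW723C86, against 80.8, 78.2 and 77.6 CPM with DMSO (log2 fold change 0.47 ± 0.06 SE, edgeR adjusted p = 1.62e-05). Slc1a4, the serine and alanine exchanger ASCT1, was lower in every BW723C86 library: 8.46, 7.66 and 6.3 CPM with BW723C86, against 9.69, 10.8 and 10.6 CPM with DMSO (log2 fold change -0.47 ± 0.12 SE, edgeR adjusted p = 0.00657). Slc7a4 rose on average (10.8, 5.71 and 7.5 CPM with BW723C86, against 3.76, 5.14 and 3.74 CPM with DMSO), but BW723C86 replicate 2 lay close to the DMSO libraries (log2 fold change 0.93 ± 0.22 SE, edgeR adjusted p = 0.00431). Slc7a1, the main cationic amino acid importer CAT1, was higher in each BW723C86 library by little and missed the threshold (log2 fold change 0.09 ± 0.05 SE, edgeR adjusted p = 0.189). Slc6a9, the glycine carrier GlyT1, fell (log2 fold change -0.41 ± 0.13 SE, edgeR adjusted p = 0.0243), with 30.2% of its exon length overlapping genes on the other strand, and it did not pass without BW723C86 replicate 3 (adjusted p = 0.0644), DMSO replicate 1 (0.124) or DMSO replicate 3 (0.0737).

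Of 8 tested carrier genes listed as known targets of ATF4, the transcription factor of the amino acid and stress response, 2 rose (Slc1a5 and Slc3a2), 4 fell (Slc38a2, Slc7a5, Slc1a4 and Slc6a9) and 2 did not pass (Slc7a1 and Slc7a3), with a median log2 fold change of -0.44. Over all tested genes, 21.3% rose and 20.7% fell. The summed level of the list was 848 to 911 CPM with BW723C86 and 964 to 966 CPM with DMSO. Atf4 itself measured 366, 332 and 353 CPM with BW723C86, against 309, 314 and 303 CPM with DMSO (log2 fold change 0.18 ± 0.05 SE, edgeR adjusted p = 0.0069).

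Of 19 tested carriers of lysosomes and endosomes, listed from textbook localisation, 14 rose, 2 fell and 3 did not pass, with a median log2 fold change of 0.38. Like the other lists, this one was chosen with earlier results of these data known. The shares over all 172 tested members were 45.9% higher and 14.5% lower, and over all tested genes 21.3% and 20.7%. The summed level of the list was 1773 to 1878 CPM with BW723C86 and 1312 to 1340 CPM with DMSO, without overlap. Of this, Slc48a1 alone held a mean of 444 CPM with BW723C86 and 229 CPM with DMSO. Those that rose include carriers of haem, amino acids, nucleosides, peptides, sialic acid, zinc, iron and copper. The counts of 14 and 2 were the same without each library in turn, and 9 and 2 passed when tested against a fold change of 1.2.

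Slc48a1 (ENSMUSG00000081534), known as HRG1, moves haem from the phagolysosome to the cytosol when macrophages digest red cells. It measured 470, 404 and 457 CPM with BW723C86, against 239, 229 and 218 CPM with DMSO. Every BW723C86 library was well above every DMSO library (log2 fold change 0.95 ± 0.06 SE, edgeR adjusted p = 4.27e-08). Slc46a3 (ENSMUSG00000029650), whose human protein exports large drug catabolites from lysosomes, measured 28.2, 25.8 and 28.1 CPM with BW723C86, against 13.1, 10.9 and 12.2 CPM with DMSO, again with the groups apart (log2 fold change 1.18 ± 0.08 SE, edgeR adjusted p = 1.54e-07). Slc29a3, the lysosomal nucleoside carrier ENT3, also rose: 161, 176 and 158 CPM with BW723C86, against 96.5, 91.9 and 96.2 CPM with DMSO (log2 fold change 0.80 ± 0.05 SE, edgeR adjusted p = 5.99e-08).

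Smaller rises were seen for other lysosomal cargo. Slc15a4, a histidine and peptide carrier needed for signalling by endosomal Toll-like receptors, rose (78.4 ± 3.18 CPM with BW723C86 and 52.5 ± 2.9 CPM with DMSO, mean ± SD, log2 fold change 0.58 ± 0.06 SE, edgeR adjusted p = 3.42e-06). Slc15a3, its close relative, rose by 0.23 ± 0.05 SE on the log2 scale, with 28.1% of its exon length overlapping Tmem132a on the other strand. Slc17a5, the sialic acid exporter sialin, rose (56.9 ± 1.15 CPM with BW723C86 and 43.6 ± 1.83 CPM with DMSO, mean ± SD, log2 fold change 0.39 ± 0.05 SE, edgeR adjusted p = 8.25e-05). The iron carrier gene Slc11a2 (0.33), the copper carrier gene Slc31a2 (0.24), the zinc carrier gene Slc30a4 (0.38) and Slc12a9 (0.70) also passed. Clcn7, the lysosomal chloride and proton exchanger, which is no member, measured 304, 279 and 317 CPM with BW723C86, against 159, 169.9 and 167 CPM with DMSO (log2 fold change 0.86 ± 0.05 SE, edgeR adjusted p = 3.86e-08).

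The 2 lysosomal or endosomal carriers that fell were a sugar carrier and a proton exchanger. Slc2a6 (ENSMUSG00000036067), the glucose carrier GLUT6, which sits on lysosomes of macrophages, measured 56.8, 47.1 and 52.7 CPM with BW723C86, against 105, 109 and 103 CPM with DMSO. The BW723C86 libraries were at about 0.49 of the DMSO level (log2 fold change -1.02 ± 0.06 SE, edgeR adjusted p = 4.82e-08). Slc9a9, the endosomal sodium and proton exchanger NHE9, measured 11.4, 10.9 and 10.03 CPM with BW723C86, against 13.5, 15.1 and 16.2 CPM with DMSO (log2 fold change -0.47 ± 0.10 SE, edgeR adjusted p = 0.00151). Slc2a8 did not pass (log2 fold change 0.12 ± 0.08 SE, edgeR adjusted p = 0.277), nor did Slc17a9 (log2 fold change 0.06 ± 0.15 SE, edgeR adjusted p = 0.794).

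The E-box CACGTG is the core of the motif through which TFEB and related factors act on lysosomal genes, and the promoters of 3 carriers that rose are shown because they hold it. Promoter windows of 300 bases (250 before to 50 after the gene's start, RefSeq, GRCm38.p6) were available for 131 of 173 members. Some genes had several windows, and a gene was counted if any of its windows matched. CACGTG, which reads the same on both strands, was found for 4 of 11 listed carriers that rose and had a window (Slc38a7, Slc36a1, Slc12a9 and Slc31a2). Among all members with a window, it was found for 10 of 56 that rose (17.9%) and 1 of 19 that fell (5.26%). For members that did not pass, the count was 9 of 56 (16.1%). A match was found for 11.6% of 10503 tested genes with a window and for 8.09% of all 27025 genes with one. The window of Slc36a1 holds it 2 times. The windows follow with the motif in capitals, Slc36a1 from chr11:55204090-55204389 on the plus strand, Slc38a7 from chr8:95853442-95853741 on the minus strand and Slc31a2 from chr4:62286179-62286478 on the plus strand.
Slc36a1: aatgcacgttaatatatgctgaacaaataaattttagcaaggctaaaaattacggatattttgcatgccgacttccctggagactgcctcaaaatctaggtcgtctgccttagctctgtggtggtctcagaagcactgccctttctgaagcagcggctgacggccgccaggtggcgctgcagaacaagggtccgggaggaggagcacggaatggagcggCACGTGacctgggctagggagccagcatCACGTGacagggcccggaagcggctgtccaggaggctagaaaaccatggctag
Slc38a7: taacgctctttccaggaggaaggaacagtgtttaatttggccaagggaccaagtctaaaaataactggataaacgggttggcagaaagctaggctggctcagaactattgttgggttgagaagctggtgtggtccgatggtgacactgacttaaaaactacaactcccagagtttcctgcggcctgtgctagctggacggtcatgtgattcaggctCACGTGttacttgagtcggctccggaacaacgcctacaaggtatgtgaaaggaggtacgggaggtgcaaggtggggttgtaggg
Slc31a2: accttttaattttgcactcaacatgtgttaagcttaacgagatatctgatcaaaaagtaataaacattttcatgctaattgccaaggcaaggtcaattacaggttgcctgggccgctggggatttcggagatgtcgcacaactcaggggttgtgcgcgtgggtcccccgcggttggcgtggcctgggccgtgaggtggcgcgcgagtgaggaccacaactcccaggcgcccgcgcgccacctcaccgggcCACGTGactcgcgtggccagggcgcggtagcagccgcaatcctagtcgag
These motifs and windows were chosen with the expression values known, and a match describes the letters only.

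Zinc carriers fall into a family that brings zinc into the cytosol (ZIP, SLC39) and a family that removes it (ZnT, SLC30). Of 13 SLC39 genes 6 rose and 2 fell, and of 7 SLC30 genes 3 rose and none fell at the threshold. Over all tested members 45.9% rose and 14.5% fell, so the share of zinc carriers that rose was near that of the whole set. The largest changes ran in opposite directions within the importers. Slc39a2 (ENSMUSG00000072572), which encodes the plasma membrane importer ZIP2, measured 112, 99.8 and 106 CPM with BW723C86, against 28.1, 24.2 and 23.5 CPM with DMSO. Its BW723C86 libraries were about 4 times as high as its DMSO libraries (log2 fold change 2.07 ± 0.07 SE, edgeR adjusted p = 1.68e-10). Slc39a4 (ENSMUSG00000063354), which encodes ZIP4, the intestinal zinc importer that is mutated in the human disease acrodermatitis enteropathica, measured 4.31, 3.17 and 4.07 CPM with BW723C86, against 23, 23.7 and 21 CPM with DMSO. Here the DMSO libraries were the high ones, without overlap (log2 fold change -2.55 ± 0.12 SE, edgeR adjusted p = 1.81e-09).

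**Figure D4:**
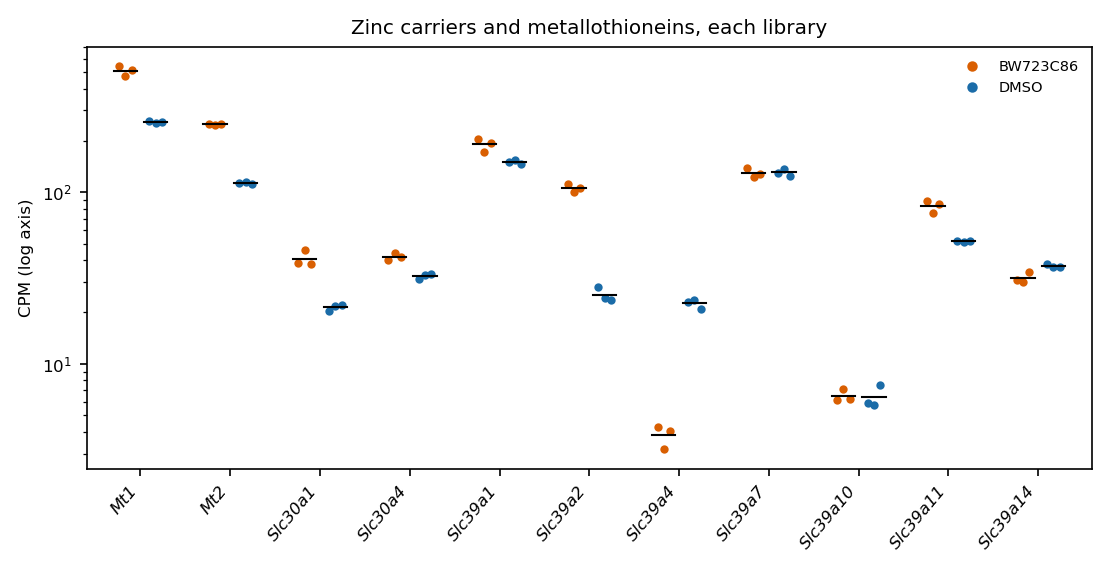
CPM of each library (log axis) for the metallothionein genes Mt1 and Mt2 and 9 zinc carrier genes, with BW723C86 in orange left of DMSO in blue and black bars for group means. Mt1, Mt2, Slc30a1, Slc30a4, Slc39a1, Slc39a2 and Slc39a11 are higher with BW723C86, Slc39a4 and Slc39a14 are lower, and the groups overlap for Slc39a7 and Slc39a10.

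Slc30a1 (ENSMUSG00000037434), which encodes ZnT1, the zinc exporter of the plasma membrane, measured 38.6, 46.1 and 38.1 CPM with BW723C86, against 20.4, 21.6 and 21.9 CPM with DMSO. The groups were apart, and BW723C86 replicate 2 was the highest (log2 fold change 0.94 ± 0.08 SE, edgeR adjusted p = 7.25e-07). The metallothionein genes, whose products bind zinc and which, like Slc30a1, are known targets of the zinc sensor MTF1, were higher too. Mt1 measured 542, 473 and 514 CPM with BW723C86, against 259, 252 and 255 CPM with DMSO (log2 fold change 1.00 ± 0.05 SE, edgeR adjusted p = 7.04e-09). Mt2 measured 249, 247 and 249 CPM with BW723C86, against 114, 114 and 112 CPM with DMSO (log2 fold change 1.13 ± 0.04 SE, edgeR adjusted p = 2.29e-10). Mtf1 itself was slightly lower (24.6 ± 0.7 CPM with BW723C86 and 28.4 ± 1.15 CPM with DMSO, mean ± SD, log2 fold change -0.21 ± 0.06 SE, edgeR adjusted p = 0.0178).

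Among the other importers, Slc39a11 (ZIP11) rose (83 ± 6.64 CPM with BW723C86 and 51.8 ± 0.37 CPM with DMSO, mean ± SD, log2 fold change 0.68 ± 0.06 SE, edgeR adjusted p = 1.27e-06), as did Slc39a1 (ZIP1), the zinc carrier with the highest level per kilobase (190.1 ± 17.1 CPM with BW723C86 and 149.9 ± 4.84 CPM with DMSO, mean ± SD, log2 fold change 0.34 ± 0.06 SE, edgeR adjusted p = 0.000557). Slc39a9 rose by 0.32 ± 0.06 SE on the log2 scale. Slc39a14 (ZIP14), which also carries iron and manganese, was lower (31.7 ± 2.14 CPM with BW723C86 and 37 ± 0.859 CPM with DMSO, mean ± SD, log2 fold change -0.22 ± 0.06 SE, edgeR adjusted p = 0.0136), and did not pass without DMSO replicate 1 (adjusted p = 0.0636). Slc39a7 (ZIP7), which releases zinc from the endoplasmic reticulum, gave overlapping groups (log2 fold change -0.01 ± 0.06 SE, edgeR adjusted p = 0.911), with 80.7% of its exon length shared with the same-strand gene model Gm20427. Slc39a10 also overlapped (log2 fold change 0.02 ± 0.14 SE, edgeR adjusted p = 0.928). The weaker calls, Slc30a7 and Slc39a3, were each lost without 3 of the 6 libraries in turn, and the class gave 6 to 9 higher members over the left-out libraries.

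The metal response element that MTF1 binds was searched in its forms TGCACNC and TGCGCNC on both strands. Genes were again counted if any of their windows matched. TGCACNC was found for 6 of 17 zinc carrier genes with a window (35.3%) and for 15.1% of tested genes with one. For TGCGCNC these values were 5 of 17 (29.4%) and 29.2%. Among all members with a window, TGCACNC was found for 14 of 56 that rose (25%) and 2 of 19 that fell (10.5%). For members that did not pass, the count was again 14 of 56 (25%). TGCGCNC was found for 28.6% of those that rose, 36.8% of those that fell and 30.4% of those that did not pass. The window of Slc30a1 (chr1:191906531-191906830, plus strand, RefSeq GRCm38.p6) is shown because it holds 1 match of each form, both on the minus strand and therefore read as their reverse complement in the capitals below.
Slc30a1: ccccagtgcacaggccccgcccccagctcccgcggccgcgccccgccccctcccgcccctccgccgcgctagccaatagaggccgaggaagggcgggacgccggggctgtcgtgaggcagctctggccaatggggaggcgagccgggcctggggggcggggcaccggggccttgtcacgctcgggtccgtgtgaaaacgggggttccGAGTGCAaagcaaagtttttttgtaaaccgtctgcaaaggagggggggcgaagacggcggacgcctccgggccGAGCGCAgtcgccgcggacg
As above, the motif was chosen with the values known and a match is a description of the letters.

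Carriers of iron, haem, copper and magnesium rose in 6 of 7 cases, with Slc48a1, Slc11a2 and Slc31a2 given above. The magnesium carriers of the SLC41 family made up the other 3. Slc41a2 measured 41.6, 42.9 and 38.9 CPM with BW723C86, against 22.4, 20.9 and 23.7 CPM with DMSO (log2 fold change 0.88 ± 0.07 SE, edgeR adjusted p = 3.33e-07). Slc41a3 measured 38.3, 31.6 and 37.6 CPM with BW723C86, against 22.4, 24 and 22.5 CPM with DMSO (log2 fold change 0.64 ± 0.08 SE, edgeR adjusted p = 2.49e-05). Slc41a1, a magnesium exporter, also rose (21.9 ± 0.264 CPM with BW723C86 and 17.7 ± 1.06 CPM with DMSO, mean ± SD, log2 fold change 0.31 ± 0.07 SE, edgeR adjusted p = 0.00415). In all 3 the groups did not overlap. Slc31a1, the plasma membrane copper importer CTR1, had overlapping groups (89.4, 103 and 93.1 CPM with BW723C86, against 98.8, 95.8 and 100.4 CPM with DMSO) and missed the threshold (log2 fold change -0.05 ± 0.06 SE, edgeR adjusted p = 0.54), except without BW723C86 replicate 2, where it passed as lower with a log2 fold change of -0.12.

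Sugar carriers were divided, with 3 of 7 higher and 2 lower. Slc2a1 (ENSMUSG00000028645), which encodes GLUT1, the main glucose importer of macrophages, measured 143, 133 and 137 CPM with BW723C86, against 148, 149 and 142 CPM with DMSO. The ranges overlapped and it missed the threshold (log2 fold change -0.09 ± 0.05 SE, edgeR adjusted p = 0.135), although it passed as lower without BW723C86 replicate 1 (log2 fold change -0.12) and with library totals alone (-0.17). Slc2a3, which encodes the high-affinity glucose carrier GLUT3, was higher at a lower level: 9.22, 9.52 and 10.5 CPM with BW723C86, against 6.44, 7.04 and 6.28 CPM with DMSO (log2 fold change 0.57 ± 0.11 SE, edgeR adjusted p = 0.000864). Slc50a1, the only mammalian SWEET family sugar carrier, also rose (34.4 ± 3.74 CPM with BW723C86 and 27.5 ± 0.181 CPM with DMSO, mean ± SD, log2 fold change 0.32 ± 0.08 SE, edgeR adjusted p = 0.00446). Slc45a3 fell to 1.9, 1.64 and 2.46 CPM with BW723C86, against 5.43, 6.25 and 5.85 CPM with DMSO (log2 fold change -1.55 ± 0.18 SE, edgeR adjusted p = 1.23e-05), with 13.5% of its exon length shared with a same-strand gene model. Slc45a4, its relative, passed narrowly as higher (log2 fold change 0.15 ± 0.06 SE, edgeR adjusted p = 0.0467) and was lost in 12 of 17 alternatives, among them omission of any 1 library but BW723C86 replicate 2 (0.0883 to 0.171). Txnip, a glucose-responsive gene whose product limits glucose uptake and which is no member, was lower (718, 741 and 744 CPM with BW723C86, against 1415, 1410.0 and 1404 CPM with DMSO, log2 fold change -0.94 ± 0.04 SE, edgeR adjusted p = 1.29e-09).

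Slc2a9 (ENSMUSG00000005107), a urate carrier of the same family, fell: 7.9, 7.7 and 7.61 CPM with BW723C86, against 16.7, 16.9 and 16.9 CPM with DMSO (log2 fold change -1.12 ± 0.08 SE, edgeR adjusted p = 2.2e-07). It was even within each group, and the groups did not overlap. The myo-inositol carrier genes Slc5a3 and Slc5a11 did not pass (log2 fold changes -0.01 ± 0.20 and 0.34 ± 0.47 SE). The urea carrier gene Slc14a1 was the 1 member that the expression filter left untested, with counts of 5, 30 and 19 with BW723C86, against 0, 0 and 6 with DMSO.

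Monocarboxylate carriers of the SLC16 family, which move lactate, pyruvate, ketone bodies, aromatic amino acids and thyroid hormone, gave 1 higher and 4 lower of 10. Slc16a3 (ENSMUSG00000025161), which encodes the lactate exporter MCT4, measured 158, 134 and 145 CPM with BW723C86, against 169, 165 and 164 CPM with DMSO. The BW723C86 libraries were lower by little (log2 fold change -0.19 ± 0.06 SE, edgeR adjusted p = 0.0171), and the call was lost without DMSO replicate 1 (adjusted p = 0.0734) or DMSO replicate 2 (0.0545). Slc16a1, which encodes MCT1, overlapped (22.1 ± 0.638 CPM with BW723C86 and 22.5 ± 1.36 CPM with DMSO, mean ± SD, log2 fold change -0.03 ± 0.07 SE, edgeR adjusted p = 0.806). Slc16a6 fell more: 14.7, 14.8 and 14.3 CPM with BW723C86, against 24.2, 22.9 and 24.2 CPM with DMSO (log2 fold change -0.70 ± 0.07 SE, edgeR adjusted p = 3.82e-06), with 22.5% of its exon length overlapping genes on the other strand. Slc16a10, the aromatic amino acid carrier TAT1, fell (9.92 ± 0.502 CPM with BW723C86 and 13.7 ± 0.556 CPM with DMSO, mean ± SD, log2 fold change -0.47 ± 0.09 SE, edgeR adjusted p = 0.000892), and Slc16a13 rose (10.3 ± 0.953 CPM with BW723C86 and 7.35 ± 0.64 CPM with DMSO, mean ± SD, log2 fold change 0.49 ± 0.11 SE, edgeR adjusted p = 0.00337). Slc16a14 fell with a wider spread (log2 fold change -0.58 ± 0.18 SE, edgeR adjusted p = 0.0186), and without BW723C86 replicate 1, DMSO replicate 1 or DMSO replicate 2 it did not pass (adjusted p = 0.0578, 0.0666 and 0.0605). The class then held 2 lower members without DMSO replicate 1 and also 2 without DMSO replicate 2.

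Glycoproteins that bring monocarboxylate carriers to the cell surface, and are no carriers themselves, moved apart. Emb, encoding embigin, measured 316, 358 and 313 CPM with BW723C86, against 782, 762 and 798 CPM with DMSO (log2 fold change -1.25 ± 0.06 SE, edgeR adjusted p = 1.29e-09). Bsg, encoding basigin, measured 412, 356 and 391 CPM with BW723C86, against 298, 314 and 299 CPM with DMSO (log2 fold change 0.35 ± 0.05 SE, edgeR adjusted p = 0.000193). The SLC37 sugar phosphate carriers gave log2 fold changes of -0.10 ± 0.08 SE for Slc37a1, -0.07 ± 0.06 SE for Slc37a2, -0.15 ± 0.06 SE for Slc37a3 and 0.06 ± 0.08 SE for Slc37a4, the glucose 6-phosphate translocase of the endoplasmic reticulum.

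In the class of fatty acid, bile acid and steroid carriers 5 of 7 genes rose, namely the 4 SLC27 members and Slc10a3. Slc51a, of the same class, did not pass (edgeR adjusted p = 0.933). All 4 SLC27 members passed as higher, the strongest being Slc27a3 and Slc27a6 above. Slc27a1 (FATP1) and Slc27a4 (FATP4), both far more abundant, rose by 0.22 ± 0.06 and 0.25 ± 0.07 SE on the log2 scale. Neither call was firm: Slc27a1 did not pass without DMSO replicate 1 (edgeR adjusted p = 0.0614) or DMSO replicate 3 (0.062), and Slc27a4 not without BW723C86 replicate 1 (0.055), BW723C86 replicate 3 (0.0636) or DMSO replicate 2 (0.0802). Slc10a3, an orphan of the bile acid carrier family, rose (34 ± 2.32 CPM with BW723C86 and 24.9 ± 1.78 CPM with DMSO, mean ± SD, log2 fold change 0.44 ± 0.07 SE, edgeR adjusted p = 0.000317), with 12.8% of its exon length shared with Ubl4a on the same strand.

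Organic ion carriers of the SLC22 family rose in 4 of 7 cases, all at low levels. Slc22a5, the carnitine importer OCTN2, measured 10.01, 10.1 and 9.83 CPM with BW723C86, against 6.77, 8.52 and 6.64 CPM with DMSO (log2 fold change 0.45 ± 0.12 SE, edgeR adjusted p = 0.00691). Slc22a18 measured 7.51, 7.37 and 8.19 CPM with BW723C86, against 5.74, 5.12 and 5.14 CPM with DMSO (log2 fold change 0.53 ± 0.12 SE, edgeR adjusted p = 0.00278), and Slc22a23 3.14, 3 and 2.36 CPM with BW723C86, against 1.48, 1.92 and 1.59 CPM with DMSO (log2 fold change 0.77 ± 0.20 SE, edgeR adjusted p = 0.00791). In these 3 the groups were apart. With Slc22a21, carnitine carriers thus made up 2 of the 4. The ergothioneine carrier gene Slc22a4 did not pass (log2 fold change 0.23 ± 0.14 SE, edgeR adjusted p = 0.195).

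Nucleoside carriers rose in 2 of 6 cases and fell in 1. Slc29a1 (ENSMUSG00000023942), which encodes ENT1, the equilibrative nucleoside and adenosine carrier of the plasma membrane, measured 233, 196 and 215 CPM with BW723C86, against 107, 117 and 114 CPM with DMSO. Every BW723C86 library was above every DMSO library, at about 1.9 times their level on average (log2 fold change 0.93 ± 0.06 SE, edgeR adjusted p = 7.59e-08). With Slc29a3 above, the plasma membrane and lysosomal carriers of this family were both higher, while Slc29a2 was not past the threshold (log2 fold change 0.30 ± 0.21 SE, edgeR adjusted p = 0.273). Slc43a3, a purine nucleobase carrier, fell by -0.20 ± 0.07 SE on the log2 scale (edgeR adjusted p = 0.0365), and lost the call without BW723C86 replicate 1 (0.113), BW723C86 replicate 3 (0.064), DMSO replicate 1 (0.101) or DMSO replicate 2 (0.148).

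Carriers of nucleotide sugars and other cargo into the Golgi and endoplasmic reticulum supply glycosylation and sulfation. Of the 22 genes placed in this class, not all of which have an established substrate, 10 rose, 2 fell and 10 did not pass. Over all tested members 45.9% rose and 14.5% fell. Slc35f6 (ENSMUSG00000029175), whose substrate is not established, measured 214, 192 and 213 CPM with BW723C86, against 112, 113 and 107 CPM with DMSO and stood apart from the rest of the class (log2 fold change 0.90 ± 0.05 SE, edgeR adjusted p = 1.98e-08). Slc35b3, which carries the sulfate donor PAPS, rose: 44.9, 42.3 and 41.9 CPM with BW723C86, against 27.7, 24.2 and 27.4 CPM with DMSO (log2 fold change 0.70 ± 0.07 SE, edgeR adjusted p = 2.6e-06). Slc35b1, the ATP and ADP exchanger of the endoplasmic reticulum, rose (57.8 ± 3.84 CPM with BW723C86 and 41.7 ± 3.19 CPM with DMSO, mean ± SD, log2 fold change 0.47 ± 0.07 SE, edgeR adjusted p = 0.00012). Slc35a3, which carries UDP-N-acetylglucosamine, fell (39.6 ± 3.02 CPM with BW723C86 and 47.4 ± 1.48 CPM with DMSO, mean ± SD, log2 fold change -0.26 ± 0.06 SE, edgeR adjusted p = 0.00546), and so did Slc35c1, which carries GDP-fucose (90.8 ± 5.38 CPM with BW723C86 and 105 ± 4.44 CPM with DMSO, mean ± SD, log2 fold change -0.20 ± 0.05 SE, edgeR adjusted p = 0.00889), although not without DMSO replicate 2 (adjusted p = 0.0588). The CMP-sialic acid carrier gene Slc35a1 did not pass (log2 fold change -0.12 ± 0.08 SE, edgeR adjusted p = 0.271). The count of 10 is not firm: it was 5 with library totals alone, and 6 without BW723C86 replicate 3 or DMSO replicate 3.

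The class of bicarbonate carriers, made up of SLC4 family members by family rather than by the proven substrate of each, gave 3 higher and 1 lower of 6. The 3 that rose, Slc4a3, Slc4a8 and Slc4a11, were all under 3 CPM in each library, and none of them was tested under the filter of 5 CPM. The abundant member that changed fell: Slc4a7 (ENSMUSG00000021733), the sodium and bicarbonate cotransporter NBCn1, measured 42.2, 47.7 and 41.4 CPM with BW723C86, against 59.7, 57.2 and 59.6 CPM with DMSO (log2 fold change -0.43 ± 0.06 SE, edgeR adjusted p = 0.000112). Slc4a2, the chloride and bicarbonate exchanger AE2, overlapped (log2 fold change 0.11 ± 0.07 SE, edgeR adjusted p = 0.218). Slc4a11 (log2 fold change 0.99 ± 0.32 SE, edgeR adjusted p = 0.026) did not pass without BW723C86 replicate 1, BW723C86 replicate 2, DMSO replicate 2 or DMSO replicate 3 (adjusted p = 0.0597 to 0.102).

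Sodium and proton exchangers rose in 4 of 8 cases, and Slc9a9 fell. Slc9a4, known from the stomach, measured 7.06, 7.25 and 7.19 CPM with BW723C86, against 2.52, 1.24 and 2.13 CPM with DMSO, with even BW723C86 libraries and a scattered DMSO group that stayed below them (log2 fold change 1.86 ± 0.21 SE, edgeR adjusted p = 1.24e-05); 21.3% of its exon length overlapped gene models on the other strand. Slc9a7, an exchanger of the Golgi, rose (8.35 ± 0.347 CPM with BW723C86 and 4.5 ± 0.287 CPM with DMSO, mean ± SD, log2 fold change 0.89 ± 0.12 SE, edgeR adjusted p = 4.55e-05), as did Slc9a2 (3.25 ± 0.339 CPM with BW723C86 and 1.69 ± 0.335 CPM with DMSO, mean ± SD, log2 fold change 0.94 ± 0.20 SE, edgeR adjusted p = 0.00208).

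Among cation and chloride cotransporters, which regulate cell volume, 3 of 5 rose and 1 fell. Slc12a4, the potassium and chloride cotransporter KCC1, rose: 69.7, 65.3 and 70.8 CPM with BW723C86, against 48.3, 49.3 and 49.7 CPM with DMSO (log2 fold change 0.48 ± 0.05 SE, edgeR adjusted p = 8.64e-06). Slc12a7 (KCC4) rose as well (44.9 ± 0.424 CPM with BW723C86 and 35.1 ± 2.18 CPM with DMSO, mean ± SD, log2 fold change 0.35 ± 0.06 SE, edgeR adjusted p = 0.000385). Slc12a2 (NKCC1) was low and overlapped (log2 fold change 0.02 ± 0.19 SE, edgeR adjusted p = 0.939).

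Calcium exchangers held a strong fall. Slc24a3 (ENSMUSG00000063873), which encodes NCKX3, an exchanger of sodium against calcium and potassium, measured 1.88, 2.11 and 1.67 CPM with BW723C86, against 14.3, 13.7 and 14 CPM with DMSO. Its BW723C86 libraries were at about 0.14 of the DMSO level, with little spread in either group (log2 fold change -2.89 ± 0.12 SE, edgeR adjusted p = 8.16e-10). Slc8a1, the sodium and calcium exchanger NCX1, rose by 0.17 ± 0.06 SE on the log2 scale (edgeR adjusted p = 0.0409), a call that was lost without any 1 of the 6 libraries (0.0506 to 0.148).

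The phosphate importer gene Slc20a1 (PiT1) fell by little (51 ± 2.35 CPM with BW723C86 and 58.4 ± 1.47 CPM with DMSO, mean ± SD, log2 fold change -0.20 ± 0.05 SE, edgeR adjusted p = 0.0113), and not without DMSO replicate 1 (adjusted p = 0.0521) or DMSO replicate 3 (0.0528). Slc20a2 did not pass (log2 fold change 0.23 ± 0.11 SE, edgeR adjusted p = 0.123). Among anion carriers, Slc26a11 rose (7.76 ± 0.42 CPM with BW723C86 and 4.46 ± 0.484 CPM with DMSO, mean ± SD, log2 fold change 0.80 ± 0.13 SE, edgeR adjusted p = 0.000235) and so did the anion exchanger gene Slc26a6 (19.98, 14.2 and 14.7 CPM with BW723C86, against 11, 10.7 and 10.7 CPM with DMSO, log2 fold change 0.59 ± 0.12 SE, edgeR adjusted p = 0.00144), in which BW723C86 replicate 1 was the highest library. The sulfate carrier gene Slc26a2 rose by 0.20 ± 0.07 SE on the log2 scale (edgeR adjusted p = 0.0257), but not without BW723C86 replicate 1 (0.0969), DMSO replicate 1 (0.0988) or DMSO replicate 2 (0.089). The citrate and dicarboxylate carrier genes Slc13a2 and Slc13a3 did not pass (edgeR adjusted p = 0.304 and 0.666).

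Slc6a6 (ENSMUSG00000030096), which encodes the taurine carrier, was the member of highest CPM: 660.2, 733 and 701 CPM with BW723C86, against 550.5, 544 and 548 CPM with DMSO. All BW723C86 libraries were above all DMSO libraries (log2 fold change 0.35 ± 0.05 SE, edgeR adjusted p = 5.54e-05). Slc6a8, the creatine carrier, rose: 95.8, 86.4 and 95.8 CPM with BW723C86, against 59.6, 55.2 and 56.7 CPM with DMSO (log2 fold change 0.70 ± 0.06 SE, edgeR adjusted p = 5.03e-07). Slc18b1, a vesicular carrier of polyamines, rose at a low level (4.92 ± 0.569 CPM with BW723C86 and 2.59 ± 0.375 CPM with DMSO, mean ± SD, log2 fold change 0.93 ± 0.17 SE, edgeR adjusted p = 0.000658). The GABA and taurine carrier gene Slc6a13 (GAT2) fell: 4.41, 3.63 and 4.02 CPM with BW723C86, against 8.37, 7.79 and 8.48 CPM with DMSO (log2 fold change -1.03 ± 0.13 SE, edgeR adjusted p = 2.27e-05). The betaine and GABA carrier gene Slc6a12 was lower without overlap but did not pass (log2 fold change -0.15 ± 0.06 SE, edgeR adjusted p = 0.0698).

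Vitamin and choline carriers gave 4 higher and 1 lower of 9. Slc5a6 (ENSMUSG00000006641), the sodium-dependent importer of biotin and pantothenate, measured 14.2, 15.3 and 16.5 CPM with BW723C86, against 8.41, 7.87 and 6.77 CPM with DMSO, without overlap (log2 fold change 1.00 ± 0.11 SE, edgeR adjusted p = 6.76e-06). Slc23a2, the vitamin C importer SVCT2, rose (129.9 ± 5.75 CPM with BW723C86 and 109 ± 3.61 CPM with DMSO, mean ± SD, log2 fold change 0.25 ± 0.05 SE, edgeR adjusted p = 0.00114). Slc44a2, a choline carrier, fell (83.8 ± 4.61 CPM with BW723C86 and 98.1 ± 4.03 CPM with DMSO, mean ± SD, log2 fold change -0.23 ± 0.05 SE, edgeR adjusted p = 0.00395), while Slc44a1 did not pass (log2 fold change 0.11 ± 0.06 SE, edgeR adjusted p = 0.178). The folate carrier genes differed in their calls: Slc46a1, the proton-coupled carrier, passed narrowly (log2 fold change 0.40 ± 0.15 SE, edgeR adjusted p = 0.0459), and Slc19a1, the reduced folate carrier, did not (log2 fold change -0.04 ± 0.10 SE, edgeR adjusted p = 0.757). The calls of Slc46a1 and of the riboflavin carrier gene Slc52a3 were lost with library totals alone and by DESeq2, which left 2 higher members in the class. That of Slc46a1 was also lost without any 1 library (adjusted p = 0.0548 to 0.152), and that of Slc52a3 without any 1 library but DMSO replicate 1 (0.0563 to 0.198).

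Per kilobase of exon, which allows levels to be compared between genes, the haem carrier gene Slc48a1 was the most abundant member with BW723C86, with levels of 161 with BW723C86 and 83.3 with DMSO, in CPM per kilobase. With DMSO the CD98 heavy chain Slc3a2 was the most abundant, at 88.3 CPM per kilobase, just above Slc48a1, and it had 99.7 with BW723C86. By the mean of both groups, the next were the taurine carrier gene Slc6a6 (82.5 with BW723C86 and 64.7 with DMSO), the zinc importer gene Slc39a1 (80.4 with BW723C86 and 63.4 with DMSO), Slc9a3r1 (74.5 with BW723C86 and 67.9 with DMSO) and the copper carrier gene Slc31a2 (68.7 with BW723C86 and 58.1 with DMSO). They were followed by Slc7a5 (47.9 with BW723C86 and 68.4 with DMSO), Slc39a7 (50.1 with BW723C86 and 50.4 with DMSO), Slc29a1 (53.5 with BW723C86 and 28.1 with DMSO) and Slc2a1 (39.2 with BW723C86 and 41.8 with DMSO). Within the groups the order differed: Slc7a5 lay below Slc29a1 and Slc39a7 with BW723C86, and directly below Slc48a1 with DMSO. Slc15a3, not among these genes by the mean, lay above Slc2a1 with BW723C86 (43.6 against 39.2 CPM per kilobase) and below it with DMSO (37.2 against 41.8). Slc9a3r1 encodes NHERF1, a scaffold that bears a carrier symbol and is not a transporter. It rose by 0.13 ± 0.05 SE on the log2 scale (edgeR adjusted p = 0.0491), and lost the call without any 1 library other than BW723C86 replicate 2 (0.119 to 0.17). The related scaffold gene Slc9a3r2 rose (10.1 ± 1.43 CPM with BW723C86 and 6.84 ± 1.01 CPM with DMSO, mean ± SD, log2 fold change 0.55 ± 0.14 SE, edgeR adjusted p = 0.00504).

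By mean level over all libraries, 5 of 23 tested members below 2 CPM rose and 1 fell, where 9.32% of all genes at that level rose and 7.98% fell. Between 2 and 10 CPM, 16 of 36 members rose and 6 fell (17.6% and 20.9% of all genes), and between 10 and 30 CPM 13 of 33 rose and 6 fell (22.3% and 24.8%). Between 30 and 100 CPM, 31 of 57 members rose and 9 fell (28.8% and 27% of all genes), and above 100 CPM 14 of 23 rose and 3 fell (37.5% and 28.9%). Just above the summed count of 60 that bounds the set lay Slc14a1 (60), Slc30a2 (85), Slc51a (88), Slc16a5 (94) and Slc35g2 (96), and just below it Slc27a2 (58), Slc4a5 (51), Slc16a4 (47), Slc6a19 (45) and Slc36a3 (45). Of the 91 Slc genes below it, 37 had no count in any library. In the 104 members that changed, the BW723C86 library nearest to the DMSO group was replicate 2 in 50 cases and replicates 1 and 3 in 27 each.

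Genes of the carrier superfamily that bear other symbols gave 22 higher and 10 lower of 50 tested, with a median log2 fold change of 0.15. All tested genes gave 21.3% higher and 20.7% lower, and all tested members 45.9% and 14.5%. Among them, the cholesterol exporter gene Npc1 rose (427 ± 8.62 CPM with BW723C86 and 303 ± 1.79 CPM with DMSO, mean ± SD, log2 fold change 0.50 ± 0.04 SE, edgeR adjusted p = 6.63e-07). Dirc2, a lysosomal carrier, rose (73.3 ± 6 CPM with BW723C86 and 40.8 ± 1.04 CPM with DMSO, mean ± SD, log2 fold change 0.84 ± 0.06 SE, edgeR adjusted p = 2.56e-07), as did Nipal3 (0.76 ± 0.05 SE on the log2 scale) and Mfsd11 (0.62 ± 0.05 SE). Slco4a1, an organic anion carrier that takes up thyroid hormone, fell (48.6 ± 1.95 CPM with BW723C86 and 93.4 ± 2.81 CPM with DMSO, mean ± SD, log2 fold change -0.94 ± 0.05 SE, edgeR adjusted p = 1.16e-08).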

How the data were processed

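RNA was measured in 6 libraries, 3 per group, grouped by title. Per the labels' protocols, poly(A) RNA was copied into dUTP-marked, strand-specific cDNA and sequenced as 150-base paired ends. The submitters' processing notes name StringTie, HISAT2, fastp and edgeR and the builds GRCm39 and GRCh38. Roles, and whether strand was used in counting, are not given in the sources used. The values the authors deposited are estimated counts per gene, all whole, so that rounding changed none. Among low values, multiples of 4 are in excess (4613 cells hold 4, while 2904 hold 3 and 2552 hold 5), so the counts worth of 1 fragment are uncertain, and counts divided by 4 were an alternative.

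Symbols of 27005 of 28822 identifiers came from GENCODE M21, which also gave exon lengths and overlaps. It describes a build other than those named, so the files' genes are given no coordinates. Overlapping genes of either strand may share reads: 20 members share at least 10% of their exon length. Promoters (RefSeq, GRCm38.p6) were matched by symbol. A count of 3 per library, 0.0385 to 0.0523 CPM, was the detection floor, and covers counting error only.

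Groups were compared in edgeR 4.0.16 (R 4.3.3) by the quasi-likelihood F test with TMM scaling, a robust fit and the default expression filter by group, over 15567 genes, Benjamini-Hochberg adjusted, threshold 0.05. SE is the log2 fold change divided by the root of F. Tested on simulated counts with changes placed in 200 genes, the method recovered 52% of log2 changes of 0.5 and 75.5% of changes of 1. Over the 15228 genes run, 11 of 133 calls were false. In the real comparison 42% of tested genes passed, a far larger part, so these rates need not hold for these data. Before averaging, replicates were compared: every pair differed by more than sampling noise, also after division of the counts by 4 (chi-square at least 2.46 per degree of freedom). Alternatives were DESeq2 1.42.0, limma-voom (limma 3.58.1), 3 other scalings, 2 other filters, the replicate block, a non-robust fit, omission of each library and a minimum fold of 1.2 in the test.

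The members and gene lists were chosen with earlier results of these data known. Genes were named by a rule: a fixed panel, up to 3 highest and 3 lowest calls per class at a mean of at least 2 CPM, the 10 most abundant per kilobase, those nearest the summed count limit and, outside the set, up to 4 calls of smallest p per list. Slc1a3, Slc4a3, Slc4a8, Slc4a11, Slc22a21, Slc39a12 and further members named beside them were chosen after their values were seen, as were genes outside the set named beyond the rule. A few genes are counted but not reported singly here. Figures were drawn with matplotlib 3.10.9.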

Additional observations from a re-analysis of the deposited data

How the results depend on the processing

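Of the 104 changed members, 79 stayed past the threshold in every alternative that tested them, except the test against a fold change of 1.2. With that test included 57 did so, and none changed sign. Members of low count were not tested in every alternative, and the filter of 5 CPM left 92 of the 104 to be tested. Tested against a fold change of 1.2, 44 members were higher, 14 lower and 3208 of all genes passed, fewer by construction. Under the other alternatives that keep all libraries, 64 to 79 members were higher and 23 to 31 lower, the extremes being scaling by library totals (64 and 31) and the filter of 5 CPM (23 lower). Leaving out each library in turn gave 65 to 76 higher and 20 to 29 lower members, and 5387 to 7153 of all genes. The replicate block gave 76 higher, 25 lower and 6179 of all genes. The values showed no pairing by replicate number: same-numbered libraries deviated together with r = 0.031, -0.025 and -0.0048. Whether same-numbered cultures were set up together is not given in the sources used. No library correlated by more than 0.038 with any of the other group.

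Directions reversed in some alternatives for 5 named members that did not pass. With library totals alone, the log2 fold change was -0.0499 for Slc12a2 and -0.0534 for Slc39a10. Leaving out each library in turn gave -0.13 to 0.17 for Slc12a2, -0.0719 to 0.15 for Slc39a10, -0.0631 to 0.0226 for Slc39a7, -0.077 to 0.0039 for Slc16a1 and -0.12 to 0.0598 for Slc19a1. The cause was not tested. Depth limits members below 2 CPM, where the worth of a fragment in counts is uncertain: with counts divided by 4, 159 members were tested.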
